A study of Mus musculus with 2 samples.

Results

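The cytochrome P450 genes of families 1 to 4 were described in 2 mouse liver tumour models profiled by droplet-based single-cell RNA sequencing. Members were the genes whose symbol reads Cyp, a family number from 1 to 4, a subfamily letter and a gene number, without pseudogene suffix, and which held at least 10 unique molecular identifiers (UMIs, each marking 1 captured RNA molecule) over both libraries. Of 75 such symbols among the 55450 genes of the files, 47 were members: all 3 Cyp1 genes, 31 of 48 Cyp2 genes, 4 of 7 Cyp3 genes and 9 of 17 Cyp4 genes. Another 13 symbols had 0 UMIs and 15 had between 1 and 9. Just below the minimum lay Cyp2c65 and Cyp2c38 with 9 UMIs each, and just inside it Cyp2j8 with 10. The members held 18871 UMIs in the NRAS.MYC.ND library and 27961 in the AKT1.MYC library, or 445 and 433 counts per 1000000 UMIs (CPM). Of the 47 members, 45 had a UMI in each library.

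Both libraries were made from liver tumours of C57BL/6 mice. NRAS.MYC.ND mice received 19 µg of a human N-Ras construct, 1 µg of a human c-Myc construct and 2 µg of Sleeping Beauty transposase plasmid. AKT1.MYC mice received 10 µg of an Akt1 construct, 10 µg of the human c-Myc construct and 5 µg of transposase plasmid. All plasmids were given by hydrodynamic tail vein injection, which delivers DNA mainly to hepatocytes, and tumours were taken at 14 weeks. Transposase inserts the constructs into the genome of the cells it reaches, so that a tumour is a mixture of transformed and host cells. The labels give neither the sex and age of the mice, the number of mice behind a library nor the promoters of the constructs, and the meaning of ND is not stated. There was 1 library per model, so no difference between the models has a replicate check and no test was made. Intervals below are exact and cover counting error only.

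Cytochrome P450 enzymes are haem-containing monooxygenases of the endoplasmic reticulum that take electrons from P450 oxidoreductase and insert an oxygen atom into lipophilic substrates. Families 1 to 3 carry much of the liver's metabolism of drugs, toxins and steroids, and family 4 mainly hydroxylates fatty acids and eicosanoids. Hepatocytes express most members, with Cyp2e1 and Cyp1a2 highest around the central vein, and several mouse genes differ between the sexes under the control of growth hormone. Other members belong to other cell types, among them Cyp1b1 in mesenchymal cells, Cyp4b1 in endothelium and Cyp4f18 in myeloid cells.

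Cells were sorted in silico by gates, each made from the summed signal of a fixed list of marker genes. The hepatocyte-like gate held 388 cells of NRAS.MYC.ND with 4332894 UMIs and 80 cells of AKT1.MYC with 791906 UMIs, and 33 and 8 of these cells lay near the boundary. In a clustering of all cells, 316 of the 388 and 77 of the 80 lay in clusters with hepatocyte markers, and most of the others of NRAS.MYC.ND in phagocyte (35) and lymphocyte (22) clusters. The duct-like gate held 35 and 1263 cells with 592647 and 25377087 UMIs. Every one of the 14 hepatocyte markers had UMIs in the hepatocyte-like gate of both libraries, with a summed level of 92326 CPM in NRAS.MYC.ND and 38332 CPM in AKT1.MYC. The 9 duct markers summed to 294 and 558 CPM there, against 3781 and 3592 CPM in the duct-like gate. Mononuclear phagocyte markers summed to 457 and 1028 CPM and fibroblast markers to 126 and 351 CPM in the hepatocyte-like gate. The part of these differences in the results below was not tested. Nras stood at 1464 CPM in hepatocyte-like cells of NRAS.MYC.ND and at 69.5 CPM in those of AKT1.MYC, and Akt1 at 42.9 and 149 CPM. The counts were aligned to the mouse genome, so human construct RNA is counted only where it matches mouse sequence. Of all barcodes, 17 occur in both libraries. A level below is the UMIs of a gene summed over the cells of a gate, as CPM of all UMIs of those cells. Each captured molecule gives 1 count near its 3′ end, so levels compare genes per molecule and not per length.

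In hepatocyte-like cells, the members together were lower in AKT1.MYC than in NRAS.MYC.ND. Their summed level was 1499 CPM in NRAS.MYC.ND (95% Poisson interval 1463 to 1536) and 916 CPM in AKT1.MYC (850 to 985), a log2 ratio of -0.71 (-0.82 to -0.60). Of the 47 members, 38 reached 10 UMIs over both libraries in this gate, the minimum used for every count of members. Higher by 2-fold or more in the NRAS.MYC.ND library were 14 members, where 13.8% of all 12319 genes measured in the gate were that much higher there. At least 2-fold higher in AKT1.MYC were 5 members, where the same held for 11.7% of all genes. Another 16 did not reach 2-fold and 3 gave no ratio, since a library with 0 UMIs allowed more than the other showed. The median log2 ratio of the members was -0.79, against 0.06 over all genes. With only gate cells of hepatocyte clusters the sums were 1517 and 965 CPM (-0.65, -0.77 to -0.53).

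**Figure D1:**
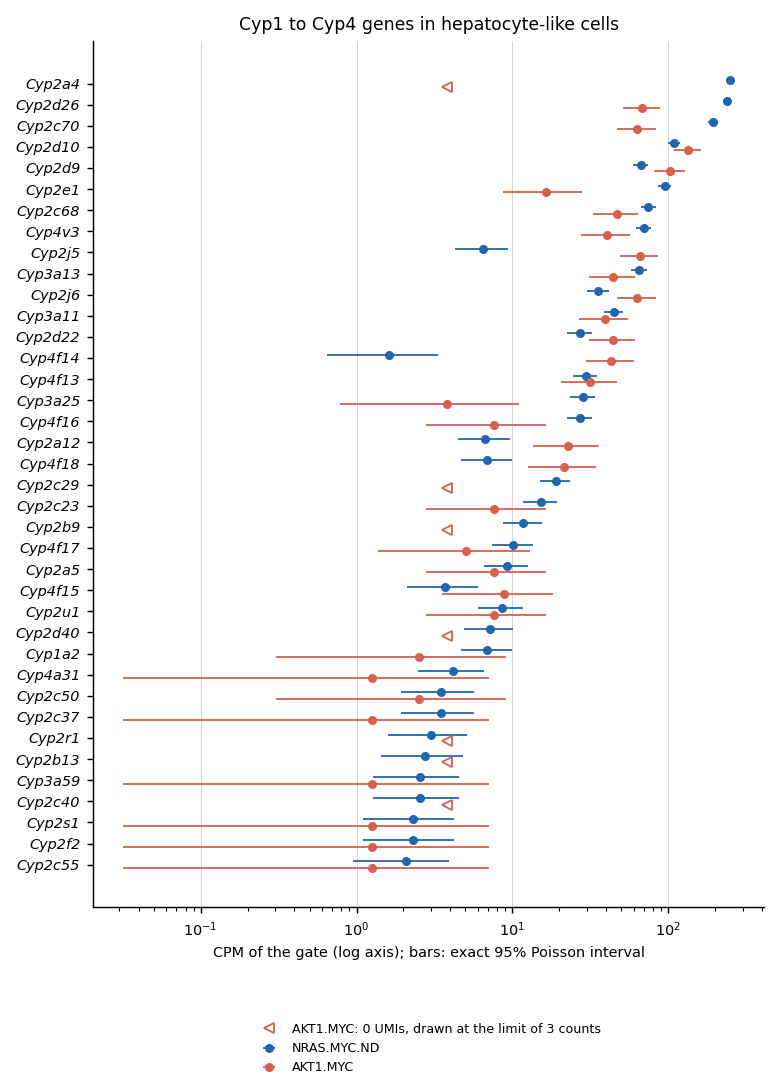
Level in hepatocyte-like cells of each of the 38 members with at least 10 UMIs there, in CPM on a log axis, by library, with exact 95% Poisson intervals; an open triangle marks 0 UMIs in AKT1.MYC and is drawn at the level of 3 counts. Cyp2a4 stands at 248 CPM in NRAS.MYC.ND against 0 UMIs in AKT1.MYC, while Cyp2j5 and Cyp4f14 are the only members above 40 CPM in AKT1.MYC that lie under 10 CPM in NRAS.MYC.ND.

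The member with the highest level in hepatocyte-like cells of NRAS.MYC.ND was Cyp2a4, a steroid hydroxylase of female-biased expression in mouse liver. Its gene lies at chr7:26307169-26315088 on the plus strand (GRCm38, GENCODE vM21, as for the positions of other genes below), and that of its relative Cyp2a5 at chr7:26835305-26843548. Cyp2a4 had 1076 UMIs in 119 hepatocyte-like cells of NRAS.MYC.ND, or 248 CPM, and 0 UMIs in AKT1.MYC. Against 3 counts, the limit a count of 0 allows, its level was at least 65.6-fold higher in the NRAS.MYC.ND cells. Over all barcodes of the whole libraries Cyp2a4 had 1609 UMIs in the NRAS.MYC.ND library and 1 in AKT1.MYC. Its close relative Cyp2a5, a coumarin hydroxylase, showed no such contrast: 40 UMIs (9.23 CPM) in NRAS.MYC.ND and 6 UMIs (7.58 CPM) in AKT1.MYC, with a log2 ratio of -0.29 (-1.81 to 0.96). Cyp2a12, a steroid hydroxylase, went the other way, at 6.69 and 22.7 CPM (log2 ratio 1.76, 0.83 to 2.66).

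Cyp2a4 and Cyp2a5 are shown here because their regions before the start of transcription are nearly the same while their levels are not. The 200 bases before the RefSeq start of each gene (GRCm38.p6, 5′ to 3′ on the gene's strand) are printed with capitals at TATAAA, the TATA element, and at TTGCNNAA, a core recognised by C/EBP factors, in either orientation.
Cyp2a4, chr7:26306992-26307191, plus strand: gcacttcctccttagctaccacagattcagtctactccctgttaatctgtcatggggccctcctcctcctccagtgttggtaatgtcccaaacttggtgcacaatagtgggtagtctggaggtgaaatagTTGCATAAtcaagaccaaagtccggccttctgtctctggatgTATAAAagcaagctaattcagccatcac
Cyp2a5, chr7:26835139-26835338, plus strand: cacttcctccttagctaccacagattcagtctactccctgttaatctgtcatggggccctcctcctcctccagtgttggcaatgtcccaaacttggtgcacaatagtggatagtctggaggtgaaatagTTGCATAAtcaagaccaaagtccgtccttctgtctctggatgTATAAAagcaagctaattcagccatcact
In a global alignment 196 bases were identical over 199 aligned pairs, or 98% of the window. Both hold the same C/EBP core, starting 70 bases before the start of Cyp2a4 and 71 before that of Cyp2a5, and a TATA element 28 and 29 bases before it. Transcripts of the 2 genes are also alike: of the 411 stretches of 90 bases in the last 500 bases of the Cyp2a4 transcript, 10.5% occur in Cyp2a5 or a pseudogene, and for Cyp2a5 1.70% occur in Cyp2a4. Reads from shared stretches cannot be assigned to a gene, so both counts are uncertain to that extent.

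Cyp2d26, Cyp2c70 and Cyp2e1 were lower in AKT1.MYC as well. Cyp2d26 (chr15:82790101-82794294) stood at 239 CPM (1034 UMIs) in NRAS.MYC.ND and 68.2 CPM (54 UMIs) in AKT1.MYC, a log2 ratio of -1.81 (-2.23 to -1.41). Cyp2c70, which in mice hydroxylates bile acids to muricholic acids, stood at 194 and 63.1 CPM (log2 ratio -1.62, -2.06 to -1.21), and in AKT1.MYC it came almost wholly from 1 of 2 clusters described below. Cyp2e1 (chr7:140763739-140774987), the ethanol-oxidising P450, stood at 95.1 and 16.4 CPM (log2 ratio -2.53, -3.46 to -1.74). Over the whole gate the intervals of the 2 libraries did not overlap for any of these 3 genes. Within cluster 8, described below, which holds cells of both libraries, those of Cyp2e1 overlapped (22.9 to 34.1 and 8.75 to 44.8 CPM). In AKT1.MYC, however, 1 cell each held 14 of the 54 Cyp2d26 UMIs, 19 of the 50 Cyp2c70 UMIs and 5 of the 13 Cyp2e1 UMIs. With only gate cells of hepatocyte clusters the Cyp2c70 interval reached inside 2-fold (-1.39, -1.85 to -0.97).

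Cyp3a25, Cyp2c29 and Cyp2b9 were lower in AKT1.MYC at smaller counts. Cyp3a25, a member of the main drug-metabolising subfamily, had 123 UMIs (28.4 CPM) in NRAS.MYC.ND and 3 UMIs (3.79 CPM) in AKT1.MYC, with a log2 ratio of -2.91 (-5.20 to -1.32). Cyp2c29, an arachidonic acid epoxygenase, had 82 UMIs (18.9 CPM) and 0, at least 5.00-fold higher in the NRAS.MYC.ND cells, although 30 of the 82 UMIs came from 1 cell. Cyp2b9, a female-biased member of the phenobarbital-responsive subfamily, had 51 UMIs (11.8 CPM) and 0, at least 3.11-fold higher. These 7 members, Cyp2a4 to Cyp2b9, were those whose whole interval lay beyond 2-fold in this direction. The other 7 members past 2-fold, among them Cyp4f16 (27.2 and 7.58 CPM) and Cyp1a2 (6.92 and 2.53 CPM), had intervals that reached inside it.

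Over all cells of the gate, Cyp2j5 and Cyp4f14 were the 2 members whose whole interval lay beyond 2-fold in the other direction. Cyp2j5 (chr4:96628773-96664154), an arachidonic acid epoxygenase of liver and kidney, had 28 UMIs (6.46 CPM) in NRAS.MYC.ND and 52 UMIs (65.7 CPM) in AKT1.MYC, a log2 ratio of 3.35 (2.66 to 4.06). Cyp4f14 (chr17:32905070-32917342), a fatty acid and leukotriene hydroxylase, had 7 UMIs (1.62 CPM) and 34 UMIs (42.9 CPM), a log2 ratio of 4.73 (3.54 to 6.15). Both rested on few cells of AKT1.MYC: 23 of the 34 Cyp4f14 UMIs and 23 of the 52 Cyp2j5 UMIs came from 1 cell each. The ratios were also taken with only the 77 AKT1.MYC and 316 NRAS.MYC.ND gate cells that lay in clusters with hepatocyte markers. The log2 ratios were then 2.48 (1.62 to 3.33) for Cyp2j5 and 2.28 (0.28 to 4.15) for Cyp4f14. The Cyp4f14 interval thus reached inside 2-fold, while those of Cyp2a12 (1.19 to 3.03) and Cyp4f18 (1.39 to 3.90) lay wholly beyond it. For Cyp4f18, which led in the neutrophil and phagocyte gates described below, only 13 NRAS.MYC.ND UMIs stood against 12 of AKT1.MYC. Over the whole hepatocyte-like gate, neutrophil markers rose from 125 CPM (NRAS.MYC.ND) to 405 CPM (AKT1.MYC), and phagocyte markers from 457 to 1028 CPM. Whether the Cyp4f18 UMIs there were myeloid RNA was not tested. Those 77 AKT1.MYC cells held 23 of the 52 Cyp2j5 UMIs (36.8 CPM, 23.3 to 55.3) and 5 of the 34 Cyp4f14 UMIs (8.01 CPM, 2.60 to 18.7). The remaining 3 cells of the gate held the rest; they carried 21.1% of its UMIs, 1 of them with 134094 UMIs, and whether they are doublets was not tested. Duct-like cells of AKT1.MYC stood at 64.6 CPM for Cyp2j5 and 50.9 CPM for Cyp4f14.

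**Figure D2:**
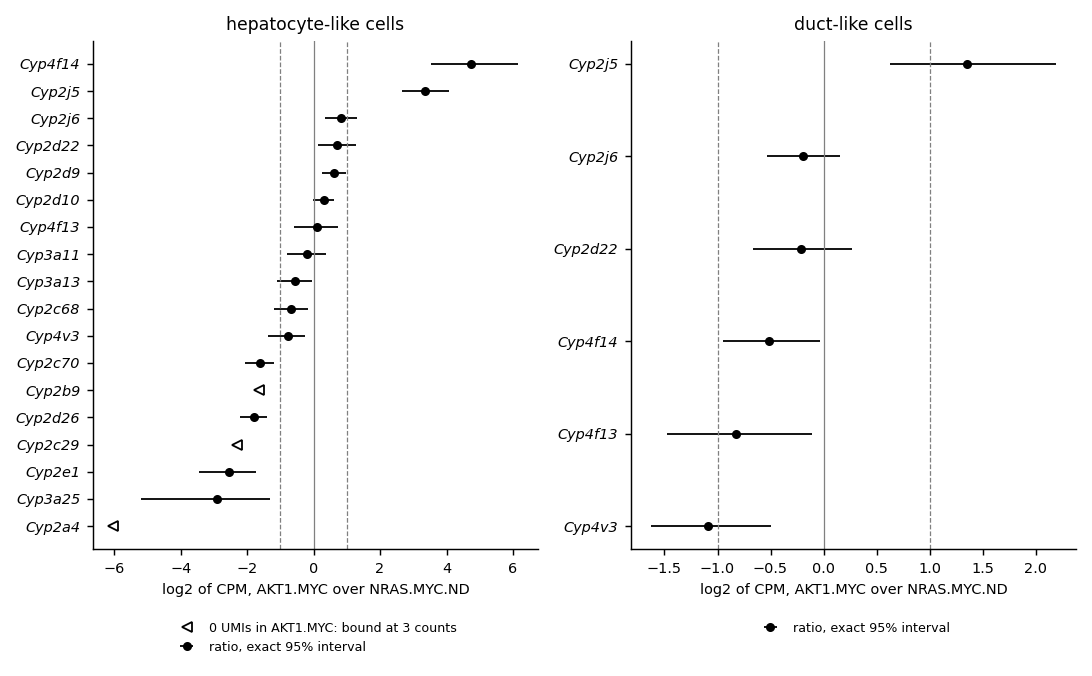
Log2 ratio of CPM, AKT1.MYC over NRAS.MYC.ND, for 18 members in hepatocyte-like cells (left) and the 6 members of highest level in duct-like cells (right), with exact 95% intervals; dashed lines mark 2-fold and open triangles are bounds where AKT1.MYC had 0 UMIs. In hepatocyte-like cells the values run from the bound for Cyp2a4 to 4.73 for Cyp4f14, and among the 6 duct-like members from -1.09 for Cyp4v3 to 1.35 for Cyp2j5.

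The upstream regions of these 2 members and of 2 members lower in AKT1.MYC are shown for comparison, printed as for Cyp2a4, to set genes of opposite direction side by side.
Cyp2j5, chr4:96664120-96664319, minus strand: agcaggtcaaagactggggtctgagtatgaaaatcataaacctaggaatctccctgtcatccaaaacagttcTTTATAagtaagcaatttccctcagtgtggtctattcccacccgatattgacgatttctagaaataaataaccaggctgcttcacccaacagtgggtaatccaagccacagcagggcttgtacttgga
Cyp4f14, chr17:32917343-32917542, minus strand: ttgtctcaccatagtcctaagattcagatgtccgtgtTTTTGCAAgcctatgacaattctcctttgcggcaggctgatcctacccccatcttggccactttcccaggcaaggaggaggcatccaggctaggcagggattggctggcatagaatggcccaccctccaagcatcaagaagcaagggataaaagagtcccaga
Cyp2d26, chr15:82794246-82794445, minus strand: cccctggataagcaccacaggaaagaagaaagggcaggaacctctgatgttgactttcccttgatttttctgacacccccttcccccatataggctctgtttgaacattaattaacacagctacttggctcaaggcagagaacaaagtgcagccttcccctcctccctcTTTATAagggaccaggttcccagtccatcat
Cyp2e1, chr7:140763619-140763818, plus strand: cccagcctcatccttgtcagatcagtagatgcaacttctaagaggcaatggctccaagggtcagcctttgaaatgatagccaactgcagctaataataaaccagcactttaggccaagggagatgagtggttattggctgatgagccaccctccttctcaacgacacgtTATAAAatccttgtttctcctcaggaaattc
Cyp2e1 holds TATAAA in forward orientation, starting 31 bases before the start. Cyp2d26 and Cyp2j5 hold the motif only in reverse orientation, as TTTATA, 31 and 128 bases before the start. Cyp4f14 holds a C/EBP core, also in reverse orientation, 163 bases before it. RefSeq promoters, 250 bases before to 50 after a start, were matched for 42 of the 47 members and searched on both strands for 8 motifs. For a member with several starts the one nearest its GENCODE 5′ end was used, but for all genes the first listed start. The shares therefore rest on starts chosen by different rules. TATAAA occurred in 18 of the 42 members (42.9%) against 14.2% of all 27025 promoters, and TTGCNNAA in 12 (28.6%) against 10.8%. Hits counted at any position, for TATAAA from 234 bases before the start (Cyp3a11) to 41 after it (Cyp2c40). CAAAGTCCA, an HNF4A motif, occurred in 5 (11.9%), all of them Cyp2c or Cyp3a genes, against 0.477%. GCGTG, the core bound by the AHR complex, occurred in 9 (21.4%) against 32.5%, CACGTG, an E-box, in 2 (4.76%) against 7.24%, and TGTTTAC, a forkhead motif, in 2 (4.76%) against 3.55%. The full HNF1 palindrome and the DR1 repeat bound by nuclear receptors occurred in 0 of the 42, and in only 2 (0.00740%) and 12 (0.0444%) of all promoters. Members of a subfamily descend from 1 gene and share sequence, so these shares are a description.

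The remaining abundant members differed by less than 2-fold between the libraries in hepatocyte-like cells. Cyp2d10 stood at 109 CPM in NRAS.MYC.ND and 134 CPM in AKT1.MYC, with a log2 ratio of 0.30 whose interval of -0.02 to 0.61 held 0. Cyp2d9, a male-biased steroid hydroxylase, stood at 66.5 and 102 CPM (0.62, 0.25 to 0.98). Cyp3a11, the main inducible drug-metabolising member of its subfamily, stood at 44.8 and 39.1 CPM (-0.19, -0.79 to 0.36), although 46 of its 194 UMIs in NRAS.MYC.ND came from 1 cell. Cyp2c68 stood at 74.5 and 46.7 CPM, Cyp3a13 at 65.3 and 44.2 CPM and Cyp4v3, a fatty acid hydroxylase of the retina and other tissues, at 69.7 and 40.4 CPM. With each cell weighted equally, Cyp3a13 and Cyp4v3 were higher in AKT1.MYC instead, with log2 ratios of 0.45 and 1.36. Cyp2j6 stood at 35.3 and 63.1 CPM, Cyp2d22 at 27.0 and 44.2 CPM and Cyp4f13 at 29.5 and 31.6 CPM. The Cyp2c68 count is uncertain, since 28.0% of its last 90-base stretches occur in Cyp2c40 or Cyp2c67, the largest such share after Cyp2c40 (49.9%) among the 47 members. No stretch was shared for 33 members.

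By subfamily, the Cyp2a, Cyp2e and Cyp2c sums were lower in AKT1.MYC and the Cyp2j and Cyp4f sums higher. The 3 Cyp2a members summed to 264 and 30.3 CPM (log2 ratio -3.12, -3.77 to -2.54), of which Cyp2a4 made up nearly all in NRAS.MYC.ND. The 9 Cyp2c members summed to 316 and 125 CPM (-1.34, -1.65 to -1.04). The 6 Cyp2d members, the most abundant subfamily in both libraries, summed to 448 and 349 CPM (-0.36, -0.55 to -0.18), and the 4 Cyp3a members to 141 and 88.4 CPM (-0.67, -1.05 to -0.32). The 5 Cyp2j members summed to 42.2 and 131 CPM (1.64, 1.28 to 1.99) and the 6 Cyp4f members to 79.2 and 117 CPM (0.57, 0.22 to 0.90). The Cyp4f difference rested on cells outside hepatocyte clusters: with only gate cells of hepatocyte clusters the sums were 75.8 and 81.7 CPM (0.11, -0.35 to 0.54). The Cyp2j sums were then 43.1 and 96.1 CPM (1.16, 0.71 to 1.59) and the Cyp2d sums 454 and 408 CPM (-0.15, -0.35 to 0.04).

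Members known for female-biased expression were detected in NRAS.MYC.ND, although both libraries carried Y-linked RNA and almost no Xist. Of 9 female-biased P450 symbols, 4 were measured in hepatocyte-like cells (Cyp2a4, Cyp2b9, Cyp2b13 and Cyp2c40). All 9 symbols together summed to 266 CPM in the NRAS.MYC.ND cells, of which Cyp2a4 alone made up 248 CPM, and to 0 in AKT1.MYC. Cyp2b13 and Cyp2c40, with 12 and 11 UMIs in NRAS.MYC.ND, gave no ratio. The male-biased P450 symbols summed to 68.1 and 111 CPM, nearly all of it Cyp2d9. Xist, transcribed from the inactive X chromosome, had 7 and 6 UMIs in the whole libraries, while the Y-linked Ddx3y had 3589 and 3418. Outside the P450s, female-biased Sult2a1 stood at 9.69 and 1.26 CPM in hepatocyte-like cells, and male-biased Mup20 at 1806 and 1105 CPM. The 8 male-biased genes listed outside the P450s summed to 3696 and 1801 CPM, so they too were lower in AKT1.MYC.

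Hepatocyte-like cells of NRAS.MYC.ND lay mostly in 2 clusters, between which the members differed in level. In a clustering of all cells made without the members, 195 of the 388 cells lay in cluster 8 and 121 in cluster 9, with 83.8% and 14.3% of the gate's UMIs. Cells of cluster 8 had a median of 15547 UMIs and 3.11% mitochondrial UMIs, and those of cluster 9 a median of 2385 UMIs and 0.394%. Both were rich in Nras, at 1520 and 1309 CPM, whereas Spp1 (osteopontin) stood at 10118 and 131 CPM and the pericentral enzyme Glul at 33.1 and 226 CPM. The summed member level was close, at 1533 and 1424 CPM. Cyp2e1 stood at 28.1 CPM in cluster 8 and 498 CPM in cluster 9, and Cyp1a2, the caffeine-metabolising pericentral P450, at 43.6 CPM in cluster 9 with 3 of its UMIs in cluster 8. Cyp2a4 stood at 285 and 59.8 CPM, Cyp2d26 at 262 and 120 CPM, Cyp2d10 at 124 and 29.1 CPM and Cyp3a13 at 77.1 and 4.85 CPM. Cyp2c70 (191 and 236 CPM) and Cyp3a11 (44.9 and 48.5 CPM) had overlapping intervals. The log2 ratio of Cyp2e1, AKT1.MYC over NRAS.MYC.ND, was -0.78 with cluster 8 alone and -4.92 with cluster 9 alone.

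**Figure D3:**
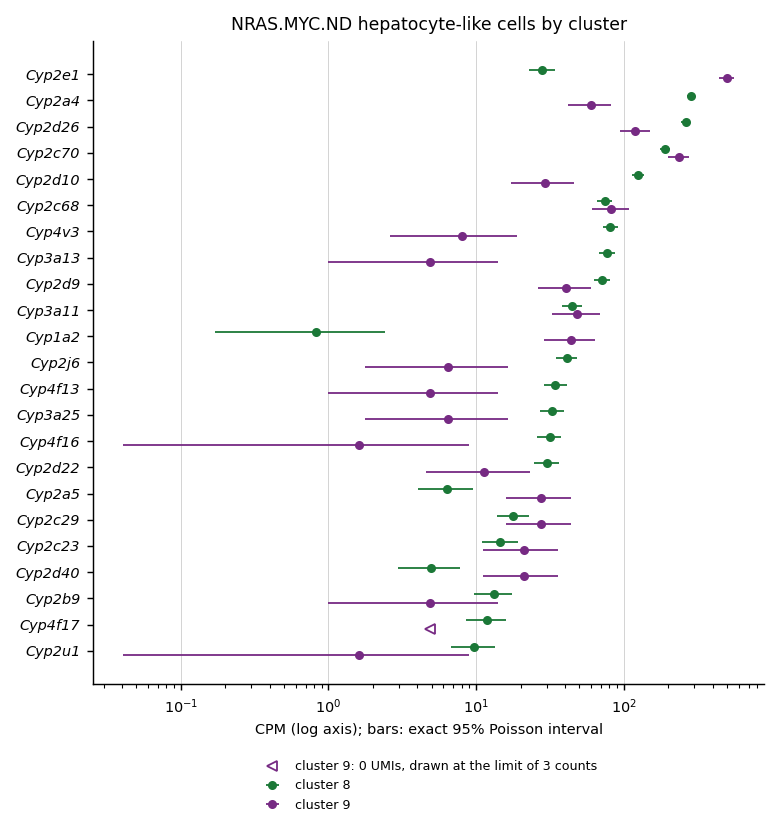
Level of members with at least 30 UMIs over both clusters, in CPM on a log axis with exact 95% Poisson intervals, in hepatocyte-like cells of NRAS.MYC.ND that lay in cluster 8 (195 cells) or cluster 9 (121 cells). Cyp2e1 and Cyp1a2 are higher in cluster 9, and Cyp2a4, Cyp2d26, Cyp2d10, Cyp4v3 and Cyp3a13 in cluster 8.

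Hepatocyte-like cells of AKT1.MYC also lay mostly in 2 clusters, with 37 of the 80 cells in cluster 8 and 38 in cluster 28, which held no cell of NRAS.MYC.ND. Cyp2c70 stood at 9.33 CPM (3 UMIs) in cluster 8 and 151 CPM (44 UMIs) in cluster 28. Cyp2d10 stood at 208 and 92.7 CPM and Cyp4f13 at 56.0 and 13.7 CPM, with intervals that did not overlap for Cyp2d10 and overlapped narrowly for Cyp4f13. Cyp2d9 (152 and 103 CPM), Cyp2d26 (65.3 and 110 CPM), Cyp3a11 (46.6 and 54.9 CPM) and Cyp2e1 (21.8 and 20.6 CPM) had overlapping intervals. The 2 libraries share cluster 8, while cluster 9 was mostly of NRAS.MYC.ND and cluster 28 wholly of AKT1.MYC. The gate ratios therefore mix clusters. Within cluster 8, NRAS.MYC.ND and AKT1.MYC stood at 28.1 and 21.8 CPM for Cyp2e1, with overlapping intervals. There Cyp2c70 stood at 191 and 9.33 CPM, Cyp2d26 at 262 and 65.3 CPM and Cyp2d9 at 71.6 and 152 CPM.

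A split of the 388 NRAS.MYC.ND cells at the median of a zonation score, made from pericentral and periportal genes that are not members, gave 194 cells on each side. Of 36 members measured, 18 were at least 2-fold higher on the periportal side, where 6.78% of all genes were, and 7 on the pericentral side, where 12.8% were. Cyp2e1 stood at 164 CPM on the pericentral and 41.4 CPM on the periportal side (log2 ratio 1.99, 1.66 to 2.33), and Cyp1a2 at 13.7 and 1.64 CPM (3.07, 1.54 to 5.05). Periportal were Cyp2d26 at 352 against 92.0 CPM, Cyp2c70 at 282 against 80.9 CPM and Cyp3a25 at 49.1 against 1.59 CPM. So were Cyp3a11 at 59.8 against 25.4 CPM (-1.24, -1.74 to -0.76) and Cyp2c29 at 24.6 against 11.6 CPM (-1.08, -1.86 to -0.35). However, 1 cell on the periportal side held 30 of the 82 Cyp2c29 UMIs, where the whole pericentral side held 22. For Cyp3a11, 46 of the 194 UMIs came from 1 cell. Cyp2a4 did not follow the axis, at 252 and 243 CPM. In the 80 cells of AKT1.MYC the same split gave 4 of 16 members on the periportal side (8.5% of all genes) and 1 on the pericentral side (6.16%), with Cyp2c70 at 108 against 23.6 CPM. Cyp2e1 stood there at 18.9 CPM on the pericentral and 13.6 CPM on the periportal side, with an interval that held 0 (0.48, -1.31 to 2.44).

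Among NRAS.MYC.ND cells thinned to 726 UMIs each, 75 cells with 2 or more Nras UMIs and 271 with 0 or 1 had summed member levels of 1322 and 1647 CPM, with a log2 ratio of -0.32 whose interval of -0.71 to 0.06 held 0. Of the 8 members measured at this depth, 4 were at least 2-fold higher in the cells with less Nras, against 14.3% of all genes, and 0 in those with more, against 8.49%. These 4 had only 2 or 3 UMIs each in the cells with more Nras, and the intervals of Cyp2d10, Cyp2d9 and Cyp2c68 held 0. Cyp2a4 accounted for the clearest difference, with 47 UMIs (239 CPM) in cells with less Nras and 3 UMIs (55.1 CPM) in cells with more (-2.12, -4.44 to -0.48).

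Duct-like cells carried another set of members at nearly the same summed level in both models. The sum was 464 CPM in NRAS.MYC.ND (411 to 522) and 460 CPM in AKT1.MYC (451 to 468), a log2 ratio of -0.01 (-0.19 to 0.16). It was 0.46 when cells were classed by their clusters and 0.34 when the gate was scaled by the median of gene ratios. Of 27 members measured, 6 were 2-fold or more higher in the NRAS.MYC.ND library, where 19.8% of all genes were, and 6 in AKT1.MYC, where 5.95% were. The 35 duct-like cells of NRAS.MYC.ND limit this comparison, and 31 of them lay in clusters with hepatocyte markers. Cyp2j6, an epoxygenase of gut and other epithelia, led with 125 and 109 CPM. Cyp2d22, a relative of human CYP2D6, stood at 69.2 and 59.6 CPM and Cyp4f14 at 72.6 and 50.9 CPM. Cyp2j5 stood at 25.3 and 64.6 CPM (log2 ratio 1.35, 0.63 to 2.19) and Cyp4v3 at 48.9 and 23.1 CPM (-1.09, -1.62 to -0.49). Cyp4f13 stood at 33.7 and 19.0 CPM. The other 5 members at least 2-fold higher in AKT1.MYC were Cyp3a13, Cyp2s1, Cyp2d10, Cyp4f18 and Cyp2c68, each with at most 3 UMIs in NRAS.MYC.ND.

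Cycling duct-like cells of AKT1.MYC had a lower member level. Thinned to 2002 UMIs, 774 cells without a UMI of 10 cell cycle genes summed to 491 CPM and 106 cells with 2 or more of these genes to 311 CPM (log2 ratio -0.66, -1.04 to -0.29). Of 12 members measured, 5 were at least 2-fold higher in the cells without (10% of all genes) and 1 in the cycling cells (7.77%). The 5 had only 1 to 5 UMIs each in the cycling cells, and the intervals of Cyp2s1, Cyp4f16 and Cyp2c68 held 0. The 1 was Cyp4f18, with 7 UMIs in the cycling cells and an interval of -0.25 to 2.49. Hepatocyte-like cells of NRAS.MYC.ND had only 17 such cycling cells, and the same sum stood at 1585 CPM without and 1864 CPM with cycling genes (0.23, -0.44 to 0.84).

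Within AKT1.MYC, where both gates were well filled with UMIs, members differed widely in their ratio between the gates. Of 29 members measured, 11 were at least 2-fold higher in hepatocyte-like cells, against 9.02% of all genes, and 2 in duct-like cells, against 12.6%. Cyp2d26 stood at 68.2 CPM in hepatocyte-like and 0.355 CPM in duct-like cells, a 192-fold difference. The folds were 124 for Cyp3a11, 84.3 for Cyp2c70 and 66.6 for Cyp2d9. Cyp2a12 had 18 UMIs among 80 hepatocyte-like cells and 2 among 1263 duct-like cells (log2 ratio of duct over hepatocyte -8.17, -11.3 to -6.11). Cyp2d10, the most abundant member in hepatocyte-like cells of AKT1.MYC, stood at 134 CPM there and at 22.9 CPM in duct-like cells, 240 of which had a UMI. Cyp2d22 stood at 44.2 and 59.6 CPM, and Cyp2j6 at 63.1 and 109 CPM. Higher in duct-like cells were Cyp2s1, a retinoid-metabolising P450 of epithelia, with 488 UMIs (19.2 CPM) against 1 UMI (1.26 CPM), and Cyp4f16 (18.1 against 7.58 CPM).

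**Figure D4:**
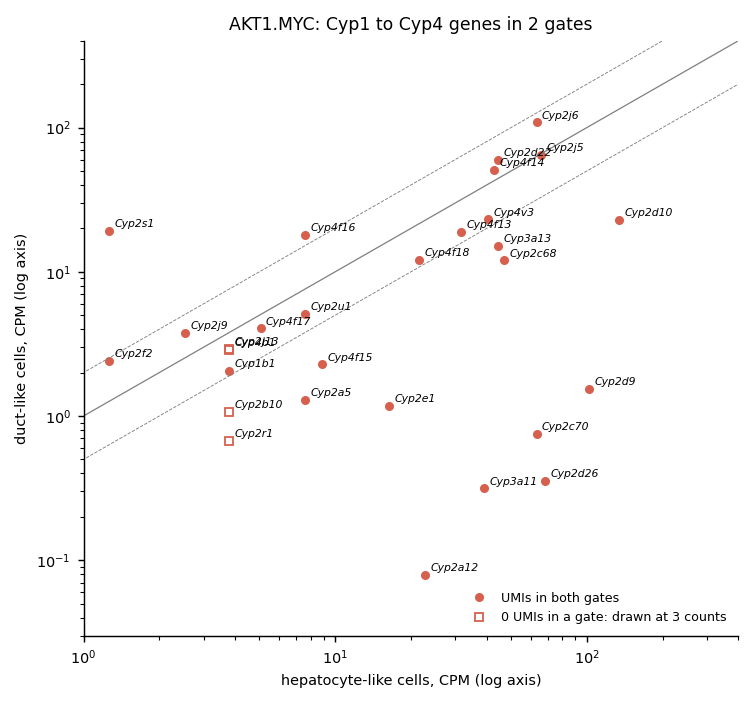
Level of the 29 measured members in hepatocyte-like cells (x axis) and duct-like cells (y axis) of AKT1.MYC, in CPM on log axes; the solid line marks equality, dashed lines mark 2-fold and open squares have 0 UMIs in a gate and are drawn at 3 counts. Cyp2d26, Cyp3a11, Cyp2c70, Cyp2d9 and Cyp2a12 lie far below the lines, Cyp2j5, Cyp4f14, Cyp2d22 and Cyp4v3 between them, and Cyp2s1 above; most UMIs of Cyp4f14 and Cyp2j5 in the hepatocyte-like gate came from 3 cells outside hepatocyte clusters.

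In NRAS.MYC.ND the same comparison gave 14 of 38 members at least 2-fold higher in hepatocyte-like cells (10.4% of all genes) and 4 in duct-like cells (28.2%). The 4 were Cyp4f14 (72.6 against 1.62 CPM, 44.9-fold), Cyp2j5 (3.92-fold), Cyp2j6 (3.54-fold) and Cyp2d22 (2.56-fold). These are the duct-like leaders of AKT1.MYC as well. In AKT1.MYC the levels of Cyp4f14 and Cyp2j5 in the 77 gate cells of hepatocyte clusters, 8.01 and 36.8 CPM, were also below those of duct-like cells.

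Outside the epithelial gates, 4 members were named for a peak in another cell type. Cyp4b1 (chr4:115624725-115647723), a fatty acid hydroxylase, peaked in endothelial cells, with 1730 UMIs (304 CPM) in 344 of 561 cells of NRAS.MYC.ND and 84 UMIs (60.5 CPM) in 40 of 171 cells of AKT1.MYC, a log2 ratio of -2.33 (-2.66 to -2.01). The endothelial sum of all members was 468 and 231 CPM. In the clustering of all cells, endothelial clusters 5, 7 and 10 held 325, 446 and 83 cells of NRAS.MYC.ND and 0, 24 and 448 of AKT1.MYC. The endothelial values may therefore compare different mixtures of cells, which was not tested. Cyp1b1 (chr17:79701537-79715061), an oestrogen and retinoid hydroxylase of mesenchymal cells, had 816 UMIs (197 CPM) in 513 fibroblasts or pericytes of AKT1.MYC and 14 UMIs (60.9 CPM) in 27 cells of NRAS.MYC.ND. Cyp2u1, a fatty acid hydroxylase, had 59 UMIs (14.3 CPM) and 8 UMIs (34.8 CPM) there. No ratio between the models is given for that gate because NRAS.MYC.ND has fewer than 30 cells in it.

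Cyp4f18 (chr8:71988482-72009626), which hydroxylates leukotriene B4 in myeloid cells, was the member with the highest level in any gate. In neutrophils it had 140 UMIs (282 CPM) in 220 cells of NRAS.MYC.ND and 600 UMIs (579 CPM) in 528 cells of AKT1.MYC, a log2 ratio of 1.04 (0.77 to 1.31), where the median log2 ratio over all genes in neutrophils was 0.55. In mononuclear phagocytes it stood at 145 and 216 CPM (0.57, 0.48 to 0.66). In phagocytes Cyp4f18 accounted for most of the summed member level of 279 and 339 CPM. Cyp4v3 (37.9 and 23.3 CPM), Cyp4f16 (27.7 and 26.8 CPM) and Cyp4f13 (17.8 and 18.3 CPM) followed in phagocytes, with less than 2-fold between the libraries.

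**Figure D5:**
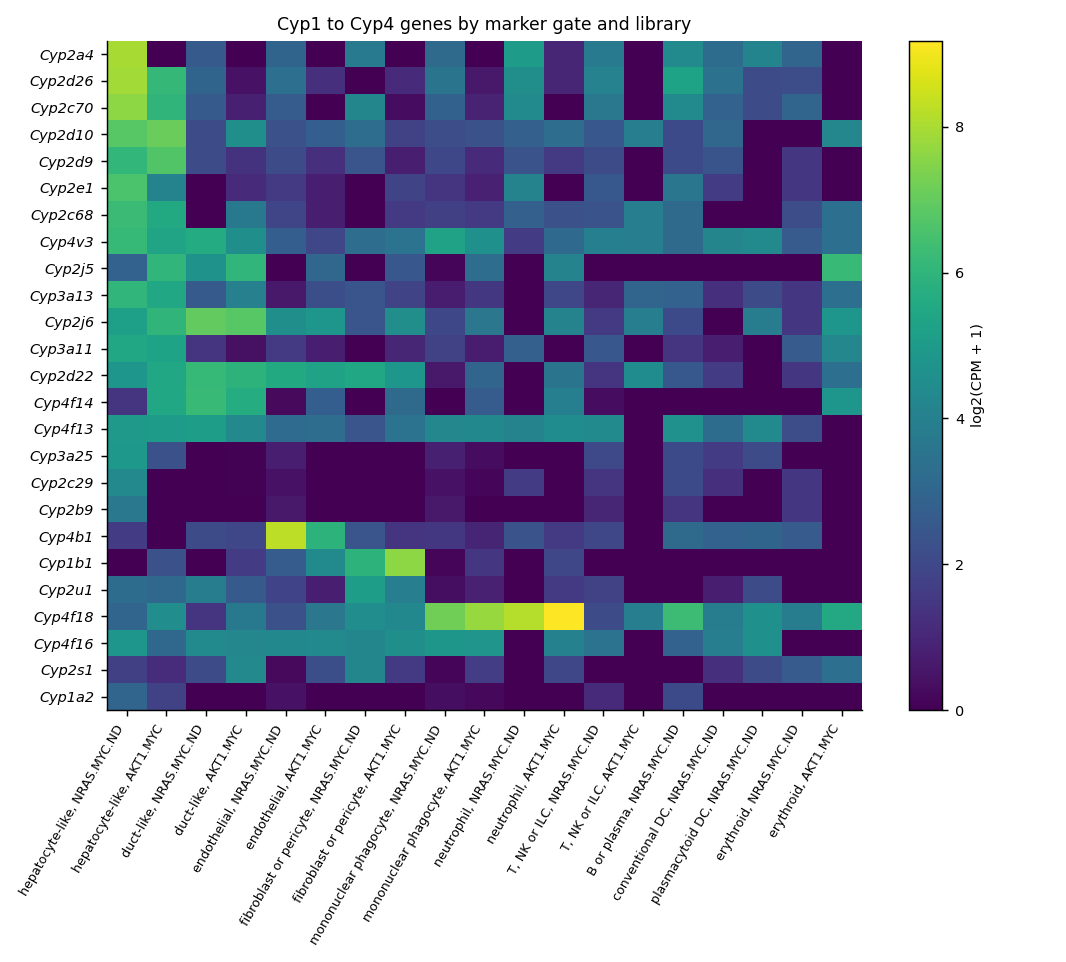
Level, as log2(CPM + 1), of the named members and of Cyp4f16, Cyp2s1 and Cyp1a2, which were chosen after their values were seen, in each gate with at least 25 cells, by library. Cyp4f18 is brightest in neutrophils, Cyp4b1 in endothelial cells of NRAS.MYC.ND, Cyp1b1 in fibroblasts of AKT1.MYC, and the columns of non-epithelial cells of NRAS.MYC.ND show low levels of Cyp2a4, Cyp2d26 and Cyp2c70.

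Cyp2a4 and Cyp2c70 had low levels in other cells of NRAS.MYC.ND, at a ratio to albumin RNA close to that in hepatocyte-like cells. Per 1000 Alb UMIs, Cyp2a4 had 12.4 UMIs (11.6 to 13.1) in hepatocyte-like cells, 11.03 (8.31 to 14.4) in lymphocytes of the T, NK or ILC gate and 11.6 (9.32 to 14.3) in phagocytes. Cyp2c70 had 9.67, 9.83 and 8.96. Whether these UMIs are background RNA was not tested. In phagocytes Cyp2d26 was somewhat above its hepatocyte ratio (15.6, 12.9 to 18.8, against 11.9, 11.2 to 12.6), and Cyp2e1 (2.41, 1.43 to 3.80, against 4.74) and Cyp3a13 (0.936 against 3.25) were below theirs. Cyp4v3 stood at 3.47 per 1000 Alb UMIs in hepatocyte-like cells and 55.4 in phagocytes, and Cyp4f16 at 1.36 and 40.5. Cyp2d22 stood at 1.34 in hepatocyte-like and 73.9 in endothelial cells. All of these exceeded their ratio in hepatocyte-like cells, and the source of the UMIs was not tested.

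Counted per cell, a UMI of any member was found in 54.6% of 346 hepatocyte-like cells of NRAS.MYC.ND thinned to 726 UMIs (exact binomial interval 49.2 to 59.96) and in 43.4% of 76 cells of AKT1.MYC (32.1 to 55.3). Without thinning the shares were 82.0% and 88.8%, and thinning left out 42 and 4 cells. Lymphocytes of the T, NK or ILC gate of NRAS.MYC.ND, thinned to 1983 UMIs, showed a member in 24.8% of 1010 cells, against 39.3% without thinning.

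The genes that supply the members with electrons and haem mostly did not reach 2-fold between the libraries. Of 16 redox partners and enzymes of haem synthesis, all measured in hepatocyte-like cells, 1 was at least 2-fold higher in each library and the median log2 ratio was 0.43. Por, the oxidoreductase that feeds electrons to every member, stood at 79.9 CPM in NRAS.MYC.ND and 146 CPM in AKT1.MYC (0.88, 0.56 to 1.18), and cytochrome b5 (Cyb5a) at 1049 and 772 CPM. Of 22 measured transcription factors and receptors that regulate P450 genes, 9 were 2-fold or more higher in the NRAS.MYC.ND library and 3 in AKT1.MYC, with a median of -0.29. Nr0b2, the bile acid-induced corepressor SHP, stood at 108 and 20.2 CPM (-2.42, -3.23 to -1.70) and Cebpa at 105 and 40.4 CPM (-1.38, -1.94 to -0.86). Nr1i3, the xenobiotic receptor CAR, stood at 15.2 and 2.53 CPM, and Hnf4a at 151 and 115 CPM. The regulators named here were all lower in AKT1.MYC and were chosen after their values were seen. The 3 that were 2-fold or more higher in AKT1.MYC are not named.

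Target genes of the regulators and zonation genes outside the members differed in both directions. Of 12 measured targets of the receptors CAR and PXR, 3 were 2-fold or more higher in the NRAS.MYC.ND library and 6 in AKT1.MYC (median 0.99). Among the 6 were Aldh1a1, a retinal dehydrogenase, at 68.8 and 509 CPM and Aldh1a7 at 7.39 and 205 CPM, while the 3 are not named. Of 9 measured pericentral genes, 0 were higher in the NRAS.MYC.ND library and 4 in AKT1.MYC (median 0.44), and of 14 periportal genes 5 were higher in the NRAS.MYC.ND library and 0 in AKT1.MYC (median -0.50), among them Gls2, a glutaminase, at 64.2 and 6.31 CPM. Of 28 conjugating enzymes and transporters, 6 were higher in the NRAS.MYC.ND library and 3 in AKT1.MYC (median -0.35), with the glutathione transferase Gsta4 at 364 and 104 CPM. In the same order, the counts were 2 and 3 of 15 PPARA targets (median 0.21), 1 and 0 of 3 AHR targets (median 0.27), and 0 and 2 of 8 P450 genes of other families (median 0.45). The shares over all genes are those given for this gate above.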

How the data were processed

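The 2 single-cell RNA sequencing libraries of tumours, 1 per model, were analysed. Per the file headers, the deposited matrices hold UMI counts per gene and barcode made by the authors with Cell Ranger 6.1.1, whereas the submitters' processing notes name version 6.1.2 and build mm10. The 6312 and 10766 barcodes held 42416125 and 64516171 UMIs. Barcodes with under 500 UMIs, under 250 genes or over 20% mitochondrial UMIs were removed (351 and 456), then the highest Scrublet scores (327 and 913, a fixed share, since the automatic threshold failed), leaving 5634 and 9397 cells with medians of 4240 and 1987 UMIs.

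A cell entered a gate with a marker score of at least 0.4, a margin of 0.25 over the next gate and 3 markers detected; this scoring rule was set after the data were seen. Counts were summed per gate and library. Levels carry exact 95% Poisson intervals and ratios exact conditional binomial ones; with 0 counts, 3 counts were used as the bound. Ratios need 10 UMIs and 30 cells per library. Intervals cover counting error only. Named members were the 15 highest in hepatocyte-like cells, those whose interval excluded 2-fold, the 6 highest in duct-like cells, and the leaders of other gates; Cyp1a2, Cyp2a5, Cyp2a12, Cyp2s1, Cyp4f16 and the named genes of other lists were chosen after their values were seen. Members and lists were chosen with earlier results of these data known. Python 3.11.15, NumPy 2.4.6, SciPy 1.17.1, pandas 2.3.3 and Scanpy 1.11.5 were used, and the interval code was tested on simulated data.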

Additional observations from a re-analysis of the deposited data

Results flagged for a closer look

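For 2 members the log2 ratio of AKT1.MYC over NRAS.MYC.ND had opposite signs in hepatocyte-like and duct-like cells with intervals that excluded 0 in both gates. Other members, among them Cyp2j6 and Cyp2d22, also differed in sign, but with an interval that held 0 in duct-like cells. The difference was not tested, since each model has 1 library. Cyp3a13 had -0.56 in hepatocyte-like cells and 1.58 in duct-like cells, where NRAS.MYC.ND held 3 of its UMIs. Cyp4f14 had 4.73 in hepatocyte-like cells, where 1 cell held 23 of the 34 AKT1.MYC UMIs, and -0.51 in duct-like cells.

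Cells that entered no gate, which no comparison used, also carried members: 315 CPM in 1622 such cells of NRAS.MYC.ND and 477 CPM in 3860 of AKT1.MYC. In AKT1.MYC these were led by Cyp4f18 (80.3 CPM), Cyp2j5 (72.6 CPM), Cyp4f14 (67.2 CPM) and Cyp2j6 (54.2 CPM), a mixture of the leaders of the myeloid and duct-like gates.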

How the results depend on the processing

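The summed level in hepatocyte-like cells, a log2 ratio of -0.71, was -1.13 with cluster classes in place of gates, -0.87 with scaling by the median of gene ratios (which shifts all genes by -0.16 in this gate and 0.36 in the duct-like gate), -0.40 with equal weight per cell and -0.56 with thinned cells. In duct-like cells the sum, -0.01, became 0.46 with cluster classes and 0.34 with median-of-ratios scaling. Thinning leaves fewer UMIs: 4 members were then 2-fold or more higher in the NRAS.MYC.ND library and 0 in AKT1.MYC in hepatocyte-like cells, and 0 and 1 in duct-like cells. Between the gates, thinning left 7 members higher in hepatocyte-like and 1 in duct-like cells of NRAS.MYC.ND, and 6 and 1 in AKT1.MYC. Duct-like members higher in AKT1.MYC numbered 2 with cluster classes, and those higher in NRAS.MYC.ND 3 with median-of-ratios scaling.

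Among members whose counting interval excluded 0, directions reversed for Cyp2d9 in hepatocyte-like cells (-0.15) and Cyp4f14 in duct-like cells (0.86) with cluster classes. In hepatocyte-like cells Cyp4v3 reversed to 1.36 with equal weight per cell, 0.60 with thinned cells and 2.32 with only cluster 9 of NRAS.MYC.ND, and Cyp3a13 to 0.45, 0.19 and 3.19. With only that cluster, 11 members were at least 2-fold higher in AKT1.MYC. The single-cluster, looser-gate, hepatocyte-cluster and cell cycle alternatives were chosen after seeing the data. Of 319 values of single members under alternatives, 22 changed sign: the 8 above and 14 of 5 members whose interval held 0 (Cyp2d10, Cyp3a11 and Cyp4f13 in hepatocyte-like cells, Cyp2j6 and Cyp2d22 in duct-like cells, the last to 1.12 with cluster classes). In all, 40 values besides the 8 lay outside the counting interval of the reported value. The cause was not tested, apart from the lower count that thinning leaves. No paired analysis was possible because each model has 1 library.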
